A study of Homo sapiens with 11 samples.

Results

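The genes described here are those whose array signal was lower with all 5 of the duplexes that carry one seed, namely the miRNA duplexes miR-520c, miR-373, miR-302a and miR-372 and the siRNA dsEcad640. They were chosen by their values. In the authors' log2 table, each of 5 duplex arrays was set against a mock array of the same set (miR-372 by sample 10), and a probe was taken when the difference was -0.6 or lower in all 5 pairs and its signal was well above background on the 4 mock arrays. Of 21372 probes that could be judged, 177 met this, which is 0.828%, while 110 probes (0.515%) were at 0.6 or higher in all 5. Probes of 10 genes were set aside (TGFBR2, LATS2, MICA, GALNT3, SEC23A, RNASE4, DAZAP2, CUTL1, DRAM and UBE2B, 13 probes), which left 164 member probes of 149 genes or transcripts out of 15992 on the list of judged probes. Since the same 5 differences made the choice, their sizes below are a description, and no test was made on them.

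The cells were PC-3, an established human prostate cancer line, and RNA was taken 24 h after transfection. Mock cells received the transfection reagent without siRNA or miRNA, and every array held 150 ng of RNA mixed from 4 transfections, so that the spread between single transfections cannot be seen. No array held a duplex with an unrelated seed. An effect of the seed therefore cannot be told apart here from one of transfecting any duplex, and neither was tested. The 11 one-colour Agilent arrays form 3 sets. In set 1 the duplexes were miR-372 (sample 4), miR-302a (sample 3) and dsEcad640 (sample 2), with sample 1 as the mock array. In set 2 they were miR-373 (sample 7) and miR-520f (sample 6), with sample 8 as the mock array. In set 3 they were miR-520c (sample 12) and again miR-372 (sample 10), with samples 9 and 11 as mock arrays. Each duplex other than miR-372 thus has 1 array. The only repeated mock arrays within a set are samples 9 and 11, and the labels do not say which of them goes with which duplex. The pairs used here were miR-372 sample 10 with mock 9 and miR-520c with mock 11.

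The 2 further arrays of duplexes, miR-372 sample 4 and miR-520f sample 6, took no part in the choice. They are no independent check, because sample 4 was set against mock sample 1, as were dsEcad640 and miR-302a, and miR-520f was set against mock sample 8, as was miR-373. Sample 4 also stood apart from the other arrays before any gene was considered: 88.1% of its probes passed the scanner software's test of being well above background, where the remaining 10 arrays had 54.5% to 72.9%. The title of sample 6 names another miRNA number than its remaining labels, and it was used as miR-520f. Of markers of PC-3 cells, the probe of KRT19 and both probes of VIM were well above background on all 11 arrays. Of genes that PC-3 is known to lack or hold low, 1 of the 3 probes of KLK3 was so too, as were the PECAM1 probe and 1 of the 2 CD3E probes, whereas those of PTPRC, HBB and ALB were not. The part of such markers in the results was not tested.

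A miRNA guides the Argonaute protein to mRNAs by its seed, the bases 2 to 8 from its 5′ end, which pair with sites that are mostly in the 3′ untranslated region, and the mRNA is then repressed and often degraded. The miRNAs of the miR-302, miR-372, miR-373 and miR-520 group are known from embryonic stem cells and the placenta, where they are abundant and favour proliferation. A siRNA such as dsEcad640, which was designed against the promoter of the E-cadherin gene, can act in the same way on mRNAs that match its seed, and the guide strand of dsEcad640 has the seed of this group. Because seed and site are only a few bases long, many mRNAs of unrelated function can be lowered by one seed.

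The mature miRNAs are shown with the seed in capitals, since the duplexes of the rule share a seed and that of miR-520f differs from it. The sequences are those of RefSeq on GRCh38.p14, at chr4:112648186-112648208 (minus strand) for miR-302a-3p, chr19:53787931-53787953 for miR-372-3p, chr19:53788748-53788770 for miR-373-3p, chr19:53707506-53707527 for miR-520c-3p and chr19:53682213-53682234 for miR-520f-3p, the last 4 on the plus strand.
hsa-miR-302a-3p: uAAGUGCUuccauguuuugguga
hsa-miR-372-3p: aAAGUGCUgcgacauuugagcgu
hsa-miR-373-3p: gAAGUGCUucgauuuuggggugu
hsa-miR-520c-3p: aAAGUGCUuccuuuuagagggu
hsa-miR-520f-3p: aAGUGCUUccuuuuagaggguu
The first 4 share the seed AAGUGCU, to which the site AGCACTT is complementary. The last has the seed AGUGCUU with the site AAGCACT. The first 21 bases of miR-520f-3p are those of miR-520c-3p from its base 2 on, so that these miRNAs differ chiefly by a shift of 1 base. Transcript sequences of the members were not analysed here.

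The member probes lay well below all probes in each pair, as the rule requires. With dsEcad640 the median log2 difference of the 164 probes was -1.15 (range -2.59 to -0.64), against 0.01 over all judged probes. With miR-302a the median was -0.92 (range -1.83 to -0.61), and with miR-373 it was -0.91 (range -1.99 to -0.61). With miR-372 sample 10 it was -0.99 (range -2.31 to -0.61), and with miR-520c it was -1.29 (range -3.33 to -0.66). A log2 difference of -1 is a signal at 1 part in 2 of the mock signal.

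The member probes were thus lowest with miR-520c and dsEcad640. Of the 164, 95 had their lowest value with miR-520c and 46 with dsEcad640, while 74 had their highest with miR-373 and 48 with miR-302a. dsEcad640 and miR-302a share mock sample 1, and dsEcad640 was the lower of them on 136 of 164 probes. The width of the whole distribution differed in a like order: the SD over all judged probes was 0.50 with miR-520c and 0.38 with dsEcad640, against 0.29 with both miR-302a and miR-373. How much of the difference between duplexes comes from this was not tested. Of the probes at -0.6 or lower with one duplex, those that were so in all 5 made up 32.4% of 547 with miR-302a (2.56% of all judged), 28.2% of 628 with miR-373 (2.94%), 21.1% of 840 with miR-372 (3.93%), 17.4% of 1018 with dsEcad640 (4.76%) and 9.04% of 1957 with miR-520c (9.16%).

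**Figure D1:**
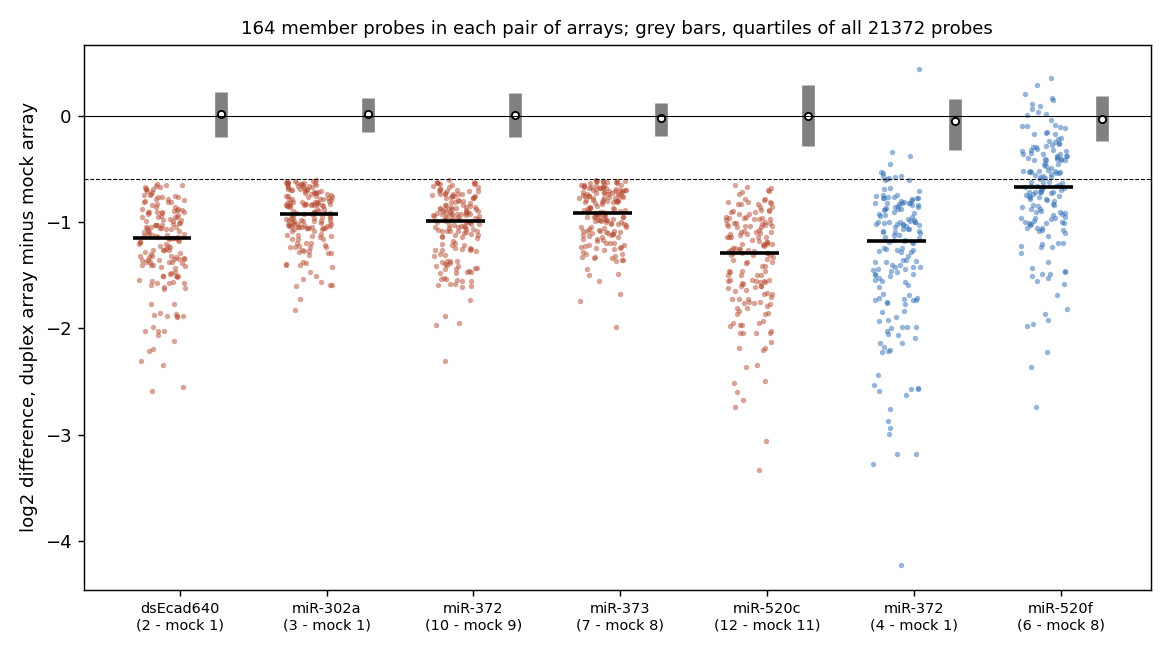
The log2 difference of each of the 164 member probes (points, with the median as a black line) is plotted for the 5 pairs of arrays used in the choice (red) and for miR-372 sample 4 and miR-520f (blue). Grey bars give the quartiles and white circles the median of all 21372 probes, and the dashed line is at -0.6. The medians were lowest with miR-520c and dsEcad640, and the points with miR-520f extend from -2.74 to 0.35.

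The members were not confined to weak or strong signals. Their mean level on the mock arrays ranged from percentile 1.31 to percentile 97.2 of all judged probes, with a median at percentile 50.9, and all 164 were well above background on all 11 arrays. This last point follows from the table, in which over 99.9% of the probes of each set were well above background on every array of that set. A gene that fell to the background with any duplex therefore has no value in it and cannot be a member.

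The mock arrays of set 3 give the only view of the error. Over the members, mock samples 9 and 11 differed by a median of 0.24 on the log2 scale without regard to sign, against 0.20 over all judged probes, and 7.17% of all judged probes differed by 0.6 or more between these mock arrays alone. For 7 member probes they differed by more than 1: those of CXCL8 (2.53), THC2665223 (-2.12), BDKRB1 (1.35 and 1.32), GPR20 (-1.09), MLC1 (-1.07) and AK123483 (-1.01), as mock 11 minus mock 9. With these mock arrays exchanged, 123 of the 164 probes still met the rule. On 7 probes at least one of the exchanged pairs was then at 0 or above, namely those of THC2665223 (1.20), GPR20 (0.17), AK123483 (0.19) and GLIS3 (0.06) with miR-372, and those of PCGF5 (0.09), BDKRB1 (0.07) and SEMA3C (0.01) with miR-520c. On these 7 probes the signal was therefore lower with all 5 duplexes only under the pairing used, while the second member probes of BDKRB1 (-0.11 with miR-520c) and GLIS3 (-0.45 with miR-372) stayed below 0.

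The 12 genes with the lowest mean over the 5 pairs are given with every array, as log2 levels of the table, which are comparable only within a set. Probe positions are those of hg18 from the scanner files, and whether a probe lies in coding sequence or in a UTR was not analysed here.

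RAB32, a small GTPase of mitochondria and lysosome-related organelles, had the lowest mean. Its first probe (chr6:146917472-146917531) was at 11.01 on mock sample 1, 8.66 with dsEcad640, 9.54 with miR-302a and 9.29 on miR-372 sample 4. Its values in set 2 were 11.14 on mock sample 8, 9.64 with miR-373 and 10.43 with miR-520f, and set 3 gave 11.80 and 12.01 on mock samples 9 and 11, 9.83 on miR-372 sample 10 and 9.41 with miR-520c. Every duplex array was below every mock array of its set. The differences from the paired mock, given here and below first for dsEcad640, then for miR-302a, for miR-372 sample 10 and for miR-373, and last for miR-520c, were -2.35, -1.47, -1.97, -1.50 and -2.60, a mean of -1.98 ± 0.50 (SD over 5 pairs), and the second probe had a mean of -1.83. Such a mean leaves 25.4% of the mock signal.

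MLC1, a membrane protein known from astrocytes, had the next lowest mean, -1.97. Its probe (chr22:48840075-48840134) was at 8.17 on mock sample 1, 5.62 with dsEcad640, 6.44 with miR-302a and 6.89 on miR-372 sample 4. On the arrays of set 2 it had 8.17 on mock sample 8, 7.07 with miR-373 and 7.65 with miR-520f, and set 3 gave 8.67 and 7.60 on mock samples 9 and 11, 7.25 on miR-372 sample 10 and 4.54 with miR-520c. The mock arrays of set 3 differed by 1.07, and miR-372 sample 10 was only slightly below mock 11, so that the difference of -3.06 with miR-520c and of -1.42 with miR-372 would be -4.13 and -0.35 with the mock arrays exchanged.

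CXCL8, listed as IL8, codes for interleukin-8, a chemokine that attracts neutrophils. Its probe (chr4:74828129-74828188) was at 7.54 on mock sample 1, 6.87 with dsEcad640, 6.27 with miR-302a and 3.31 on miR-372 sample 4. Set 2 gave 7.51 on mock sample 8, 5.53 with miR-373 and 6.08 with miR-520f, and set 3 gave 8.72 and 11.26 on mock samples 9 and 11, 6.42 on miR-372 sample 10 and 7.93 with miR-520c. On this probe all duplex arrays were below the mock arrays of their set, but the differences spread from -0.67 with dsEcad640 to -3.33 with miR-520c, the widest range of all members (2.66). With mock 9 in place of mock 11 the value with miR-520c was -0.80, so that the order of the duplexes on this probe depends on the mock array. Another CXCL8 probe passed the background test for only 2 mock arrays and could not be judged. It did not show the lowering, at -0.21 with dsEcad640 and 0.02 with miR-302a, and had no value in the remaining pairs of the rule.

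CMPK1, listed as CMPK, the kinase of UMP and CMP, gave a narrower picture. Its probe (chr1:47616505-47616564) was at 10.40 on mock sample 1, 8.51 with dsEcad640, 8.81 with miR-302a and 8.72 on miR-372 sample 4. In set 2 it was at 10.44 on mock sample 8, 9.08 with miR-373 and 9.96 with miR-520f, and set 3 gave 11.24 and 11.22 on mock samples 9 and 11, 9.29 on miR-372 sample 10 and 8.48 with miR-520c. The mock arrays of set 3 were nearly equal, and the differences were -1.89, -1.59, -1.95, -1.36 and -2.74. With miR-520f the difference was -0.48.

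SCARA5, a scavenger receptor that binds ferritin, was at 7.58 on mock sample 1, 5.38 with dsEcad640, 5.76 with miR-302a and 4.95 on miR-372 sample 4 on its probe. Its values in set 2 were 7.40 on mock sample 8, 5.72 with miR-373 and 6.85 with miR-520f, and set 3 gave 8.17 and 7.24 on mock samples 9 and 11, 6.44 on miR-372 sample 10 and 5.20 with miR-520c. The differences were -2.20, -1.83, -1.73, -1.68 and -2.05, and sample 4 was lower still (-2.63), whereas miR-520f was at -0.54. The gene's probe is at chr8:27783794-27783853, and a further probe of SCARA5 had a mean of 0.03 over the 5 pairs.

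GNPDA2, a glucosamine-6-phosphate deaminase, had 2 member probes with means of -1.68 and -1.65. The first (chr4:44399135-44399194) was at 9.05 on mock sample 1, 7.16 with dsEcad640, 7.48 with miR-302a and 7.28 on miR-372 sample 4. On the arrays of set 2 it had 9.07 on mock sample 8, 7.70 with miR-373 and 7.86 with miR-520f, and set 3 gave 10.31 and 10.32 on mock samples 9 and 11, 8.78 on miR-372 sample 10 and 8.27 with miR-520c. The mock arrays of set 3 differed little, and the differences on this probe were -1.89, -1.57, -1.53, -1.37 and -2.05. With miR-520f the probes were at -1.21 and -1.001.

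SAMTOR, listed as FLJ31818, is a sensor of S-adenosylmethionine that acts upstream of mTORC1. Its probe (chr7:112246659-112246718) was at 8.14 on mock sample 1, 6.11 with dsEcad640, 6.87 with miR-302a and 6.30 on miR-372 sample 4. Set 2 gave 8.45 on mock sample 8, 7.42 with miR-373 and 6.22 with miR-520f, and set 3 gave 9.37 and 9.10 on mock samples 9 and 11, 7.81 on miR-372 sample 10 and 6.58 with miR-520c. The differences of the 5 pairs were -2.03, -1.27, -1.56, -1.02 and -2.52, and with miR-520f it was -2.22, lower than with miR-373 in the same set.

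LCOR, a corepressor of nuclear receptors, had a probe at chr10:98708378-98708437. Its levels were 7.24 on mock sample 1, 5.62 with dsEcad640, 5.73 with miR-302a and 3.96 on miR-372 sample 4. In set 2 they were 7.13 on mock sample 8, 5.57 with miR-373 and 5.57 with miR-520f, and in set 3 8.50 and 8.95 on mock samples 9 and 11, 7.03 on miR-372 sample 10 and 6.76 with miR-520c. The 5 differences were -1.61, -1.51, -1.47, -1.56 and -2.19, that with miR-520f was -1.56, and that of sample 4 was -3.28. LCOR was thus low with all 6 duplexes on this probe, while 2 other probes named C10orf12, which RefSeq now assigns to LCOR, had means of -0.28 and -0.32.

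GCNT3, which branches the glycans of mucins, was a gene on which the order of the duplexes depended on the mock array. Its probe (chr15:57699411-57699470) was at 7.97 on mock sample 1, 6.65 with dsEcad640, 6.60 with miR-302a and 6.95 on miR-372 sample 4. In set 2 it was at 7.90 on mock sample 8, 6.15 with miR-373 and 7.37 with miR-520f, and set 3 gave 8.36 and 9.36 on mock samples 9 and 11, 6.77 on miR-372 sample 10 and 7.15 with miR-520c. The mock arrays of set 3 were 1.00 apart, and the duplex arrays of that set were below both. The differences were -1.32, -1.37, -1.59, -1.75 and -2.21, and that with miR-520f was -0.52. With the mock arrays exchanged miR-372 was at -2.59 and miR-520c at -1.21, so that miR-520c went from the lowest of the 5 to the highest.

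GSTM3, a glutathione S-transferase of the mu class, was the brightest of the 12. Its first probe (chr1:110081657-110081803) was at 12.33 on mock sample 1, 10.30 with dsEcad640, 11.02 with miR-302a and 10.65 on miR-372 sample 4. Its values in set 2 were 12.24 on mock sample 8, 11.16 with miR-373 and 11.82 with miR-520f, and set 3 gave 13.13 and 12.93 on mock samples 9 and 11, 11.53 on miR-372 sample 10 and 10.89 with miR-520c. The means of its 2 member probes were -1.61 and -1.53, and the member probe of the related GSTM1 was at -1.38. Another GSTM3 probe had no value in set 2 and could not be judged. It was at 0.09 with dsEcad640, -0.19 with miR-302a, -0.41 with miR-372 sample 10 and -0.33 with miR-520c, and at 1.54 on miR-372 sample 4. Because the genes of this class are nearly identical in places, the signal of GSTM1 and GSTM3 may not be separate.

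ELK4, an ETS factor that binds DNA with the serum response factor, was at 11.08 on mock sample 1, 9.21 with dsEcad640, 9.69 with miR-302a and 9.73 on miR-372 sample 4 on its probe (chr1:203844121-203844180). On the arrays of set 2 it had 11.12 on mock sample 8, 10.04 with miR-373 and 9.54 with miR-520f, and set 3 gave 12.39 and 12.20 on mock samples 9 and 11, 10.85 on miR-372 sample 10 and 10.07 with miR-520c. The differences were -1.87, -1.40, -1.54, -1.09 and -2.13, and that with miR-520f was -1.59. In set 2 ELK4 was therefore lower with miR-520f than with miR-373 on this probe. Another ELK4 probe had no value in set 2 and could not be judged. It was less low, at -0.43 with dsEcad640, -0.27 with miR-302a, -0.33 with miR-372 sample 10 and -0.52 with miR-520c.

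TMEM50B, a membrane protein of the endoplasmic reticulum and Golgi, was at 10.62 on mock sample 1, 8.75 with dsEcad640, 9.56 with miR-302a and 9.61 on miR-372 sample 4 on its probe (chr21:33743765-33743824). Set 2 gave 10.66 on mock sample 8, 9.71 with miR-373 and 9.36 with miR-520f, and set 3 gave 11.53 and 11.19 on mock samples 9 and 11, 10.28 on miR-372 sample 10 and 8.52 with miR-520c. The difference was -2.67 with miR-520c but -0.95 with miR-373, one of the widest ranges among the members (1.72). Another probe of the gene had a mean of -0.91.

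**Figure D2:**
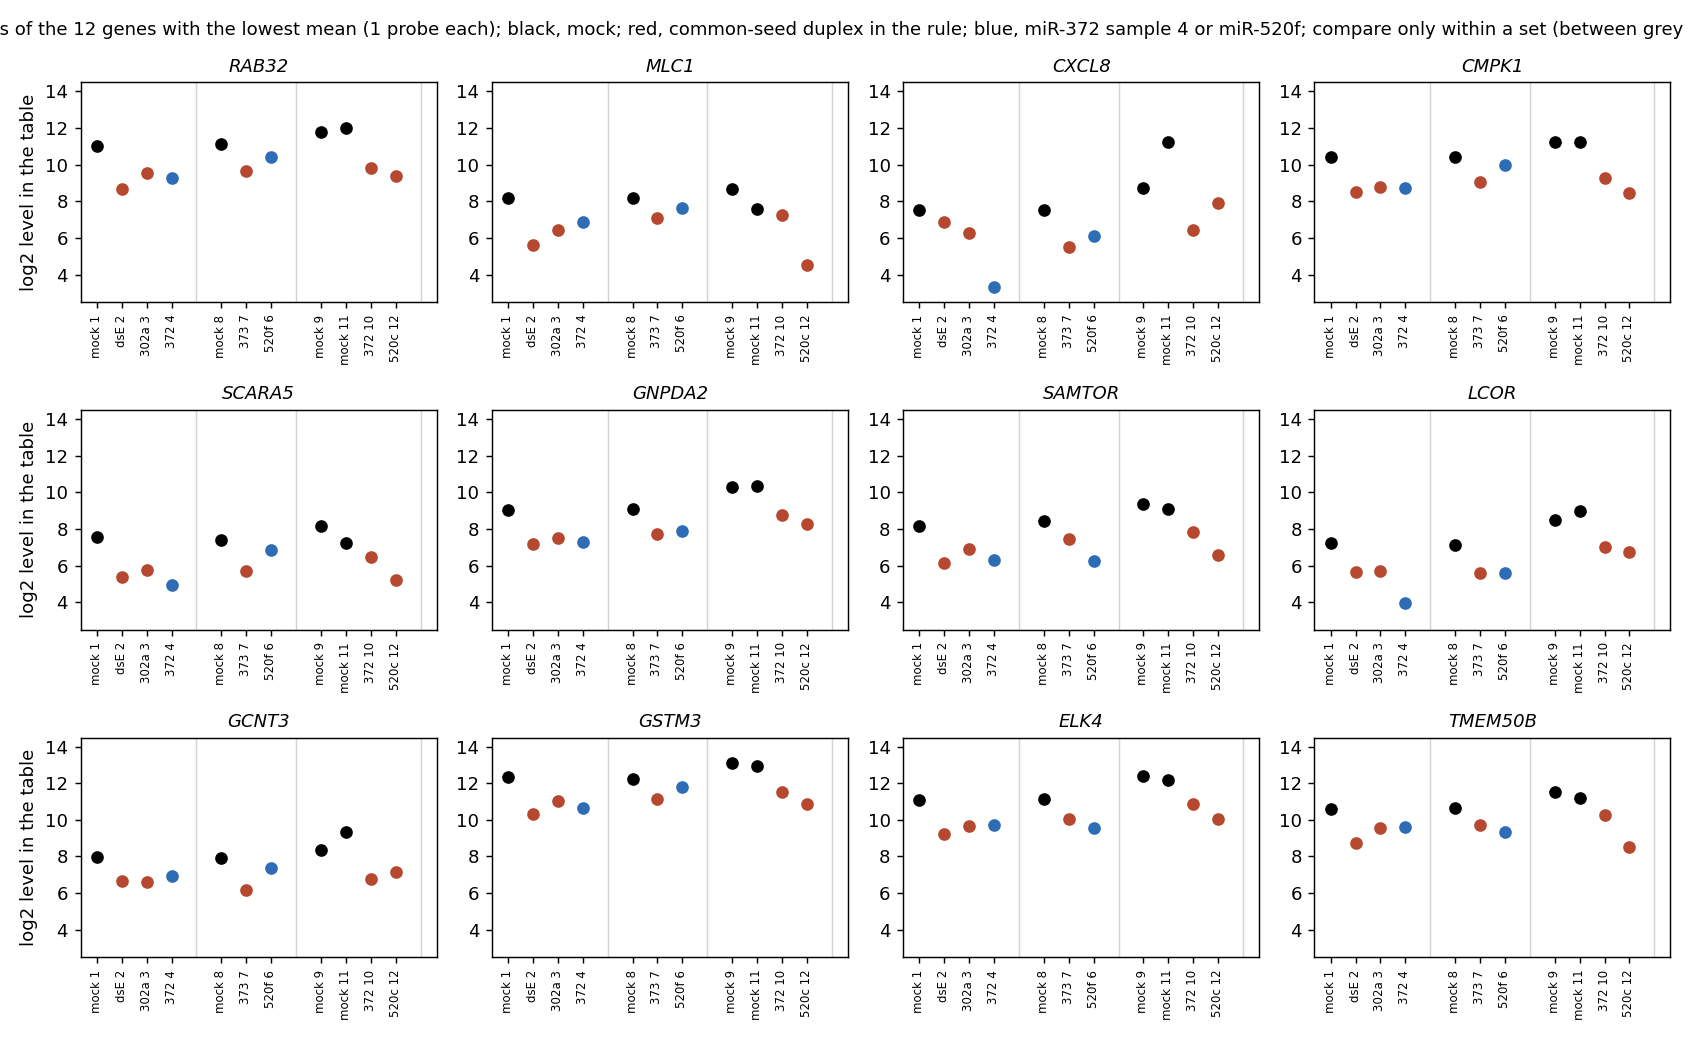
Log2 levels in the authors' table are plotted for the 12 genes with the lowest mean, 1 probe each, on the 11 arrays (mock black, common-seed duplexes of the choice red, miR-372 sample 4 and miR-520f blue). Grey lines part the sets, between which levels are not comparable. Duplex arrays lie below the mock arrays of their set for RAB32, CMPK1 and GNPDA2, while the mock arrays of set 3 are 2.53 apart for CXCL8.

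In 32 probes of 27 genes all 5 differences were -1 or lower. Besides 10 of the genes above other than CXCL8 and TMEM50B, these were MBD2, FYCO1, MTMR4, TSEN34, NFIB, ROBO4, DYRK4, TMEM64, P4HA3, LIN52, ZNF25, FAM107A, BDKRB1, a MICB transcript and 3 transcripts without a gene name.

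The smallest ranges over the 5 pairs were those of EPS8 (0.07), CCDC80 (0.11) and OXR1 (0.13). EPS8, an adaptor between the EGF receptor and actin, was at -1.02, -0.97, -0.98, -0.98 and -1.04, and with the mock arrays of set 3 exchanged at -1.11 with miR-372 and -0.91 with miR-520c. CCDC80 was even only under the pairing used, since the exchange gave -1.07 with miR-372 and -0.46 with miR-520c, and its other probe ran from 0.03 with miR-302a to -1.14 with miR-520c. By contrast 24 members had a range of 1 or more.

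Near the threshold the choice was narrow. The members just inside were ALG9, with a highest difference of -0.61 with miR-373, SKA2, listed as FAM33A, with -0.61 with miR-302a, and MAGEH1, with -0.61 with miR-372. Just outside were a second probe of MYBL1 (highest -0.60, with miR-373), a probe of DUSP3 (-0.60, with miR-302a) and a probe of FBXO28 (-0.60, with miR-373). Between -0.7 and -0.6 lay the highest difference of 58 members, and between -0.6 and -0.5 that of 100 other probes.

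Genes of vesicle traffic and endosomes gave 17 of the member probes from 15 genes, with a median of the means over the 5 pairs of -1.10, beside 0.0027 over all judged probes. Besides RAB32 they held 3 further Rab GTPases. RAB22A of early endosomes had a mean of -1.10, RAB11A of recycling endosomes -1.09 and RAB3B of regulated exocytosis -1.07 and -1.06 on its 2 probes. RABGAP1, which switches Rab proteins off, was at -1.30.

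On endosomes themselves, FYCO1, which links vesicles to kinesin, was at -1.48, MTMR4, a phosphatase of the endosomal lipid PI3P, at -1.47 and VAMP3, a SNARE of recycling endosomes, at -1.35. VPS35, a subunit of the retromer that returns receptors to the Golgi, was at -0.87. VAMP3 was -1.27, -0.85, -1.48, -0.80 and -2.35 with the 5 duplexes, so that its values with miR-302a and miR-373 lay far above that with miR-520c. SNAPIN, listed as SNAPAP, had -0.88, BORCS7, listed as C10orf32 and part of a complex that positions lysosomes, -0.86, and the transcript described on the array as KIAA0226 (ENST00000273582) -0.84. The Golgi proteins TVP23B and TVP23C, listed as FAM18B and FAM18B2, had -1.29 and -1.05, and since these genes are close copies their signals may not be separate. With miR-520f, 13 of the 17 probes of this role were at -0.6 or lower (as were 5.29% of all judged probes and 54.9% of all 164 members), and the lowest were VAMP3 (-1.96) and RAB3B (-1.92 and -1.51).

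A list by role of 47 measured genes of Golgi and endosome traffic is given beside them. It was chosen with earlier results of these data known, so that its share is a description and not a test of enrichment. Of its 78 judged probes, 2 were at -0.6 or lower in all 5 pairs (VAMP3 and VPS35, 2.56%, beside 0.828% of all), and 1, of the SNARE SNAP23, was at 0.6 or higher in all 5. Its median was -0.03.

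Regulators of transcription and chromatin gave 30 probes of 27 genes, with a median of -1.02. Roles were assigned to members only, so that how common each role is among all judged probes is not known here. MBD2, which binds methylated DNA, was at -2.03, -1.01, -1.44, -1.24 and -1.72 in the 5 pairs and at -1.87 with miR-520f. NFIB, a factor of lung and brain development, had -1.42 and -1.26 on its 2 probes and ZBTB20, a zinc finger repressor, -1.31. ZNF25 had -1.25 and -1.09, TCEAL1 -1.26 and LIN52, part of the DREAM complex that represses cell cycle genes, -1.22. LCOR and ELK4 were described above.

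Sequence-specific factors also included TRPS1 (-1.10), a repressor at GATA sites, PPARA (-1.07), the fatty acid receptor PPAR alpha, and IRF2 (-1.07), an interferon regulatory factor. RELA, the p65 subunit of NF-kB, was at -1.31, -0.92, -0.88, -0.88 and -1.07 in the 5 pairs. NFYA, which binds the CCAAT box, had -1.01, RUNX2, the osteoblast factor, -1.002 and BHLHE41, listed as BHLHB3 and a repressor of the circadian clock, -1.03. MXI1, an antagonist of MYC, had -0.94, MYBL1 -0.93, GLIS3 -0.91 and -0.91, ZKSCAN1 -0.94 and ZNF226 -0.93.

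Of the chromatin genes, SMARCC2, a core subunit of the SWI/SNF remodeller, had -0.88, PCGF5, a Polycomb ring finger protein, -0.99 and ASF1A, a histone chaperone, -0.97. BRMS1L of the SIN3 deacetylase complex was at -1.01, ATAD2, a bromodomain ATPase, at -0.83 and HP1BP3, related to linker histones, at -0.80. TERF2IP, the telomere protein RAP1, was at -1.19. With miR-520f 18 of the 30 probes were at -0.6 or lower, beside 54.9% of all 164 members and 5.29% of all judged probes. Of the 30, ZNF226 (-1.82) and MBD2 (-1.87) were lowest and RUNX2 (0.02) highest.

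Genes of immune signals and recognition gave 9 probes of 8 genes or transcripts, with a median of -1.17. NKG2D is the receptor by which natural killer cells recognise stressed cells, and 2 of its ligands were among them. MICB was at -1.18, -0.96, -1.21, -0.87 and -1.60 on its member probe. Another judged probe of MICB was less low, at -0.38, -0.40, -0.58, -0.18 and -0.91 (mean -0.49), and at 0.08 with miR-520f. The transcript described as MICB (ENST00000252229, chr6:31585698-31585757) was at -1.55, -1.41, -1.46, -1.34 and -1.55, almost the same with each duplex. MICB is closely related to MICA, which was set aside, and the probes may share signal. ULBP2 was at -0.91, -0.68, -0.90, -0.81 and -0.81.

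BTN3A2, a butyrophilin of the family to which gamma delta T cells respond, was far lower with dsEcad640 than with the others. Its 2 probes were at -2.59, -0.91, -1.12, -1.14 and -1.11 and at -2.30, -0.90, -0.97, -1.10 and -1.19 in the 5 pairs. The value with dsEcad640 was thus more than 1 unit below each of the other 4 on both probes, and the butyrophilins of this family are near copies. IFNLR1, listed as IL28RA, the receptor of interferon lambda, had a mean of -0.84, IL4I1, an amino acid oxidase of immune cells, -1.08 and PSMB9, a subunit of the immunoproteasome, -0.90.

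Receptors and signalling genes gave 17 probes of 15 genes, with a median of -1.06. ROBO4, a receptor of the endothelium, had -1.41 and -1.20 on its 2 probes, BDKRB1, a bradykinin receptor, -1.14 and -1.07 and the orphan receptor GPR20 -0.99. FZD6, a receptor of Wnt proteins, was at -1.01, -1.23, -0.72, -0.79 and -1.20. Behind the receptors, GNAQ, the G protein alpha subunit that activates phospholipase C, had -0.88, PIK3CA, the catalytic subunit of PI3 kinase, -0.91 and PKIA, an inhibitor of protein kinase A, -0.91. The kinase DYRK4 had -1.40, the transcript described as the kinase MAST4 (ENST00000261569) -0.74, RASSF2, of the Ras association family, -0.88, RELL1 -1.06 and APCDD1L -1.30.

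Metabolic and detoxifying enzymes gave 17 probes of 14 genes, with the lowest median of the roles with more than 5 probes (-1.28). MAT2B, the regulatory subunit of methionine adenosyltransferase, had -1.36 and -0.97 on its 2 probes and CYB5R4, a cytochrome b5 reductase, -1.28. FITM2, listed as C20orf142 and needed for lipid droplets, was at -2.22, -0.84, -0.69, -0.63 and -0.91, so that dsEcad640 was more than 1 unit below the rest on this probe. The other judged probe of FITM2 was at 0.25 with dsEcad640 and had a mean of -0.20. SCD5, a stearoyl-CoA desaturase, had -1.05, OXR1, which protects from oxidation, -0.86 and the transcript of the phosphorylase kinase alpha subunit (ENST00000373542) -1.36. CRYL1 had -0.94, ABHD3, a phospholipase, -0.86, PTGR2, listed as ZADH1 and a prostaglandin reductase, -0.83 and CA12, a carbonic anhydrase, -0.83.

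This role was lower with miR-520c (median -1.72) and dsEcad640 (-1.42) than with miR-302a (-0.89) and miR-373 (-0.90). The 164 members together had the same order, with medians of -1.29 and -1.15 against -0.92 and -0.91, so that it is not particular to this role. With miR-520f the median of this role was -0.49. Of its 17 probes, 5 were then at -0.6 or lower, beside 54.9% of all 164 members and 5.29% of all judged probes. The lowest with miR-520f were CYB5R4 (-1.98), FITM2 (-1.22) and the probes of GNPDA2 (-1.21 and -1.001).

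Of 5 genes of glycosylation and collagen modification, GCNT3 was described above. P4HA3, a collagen prolyl hydroxylase, was at -1.19, SLC35D1, a carrier of nucleotide sugars, at -0.86, MANEA, an endomannosidase, at -0.82 and ALG9, a mannosyltransferase of the endoplasmic reticulum, at -0.76. None of the 5 was at -0.6 or lower with miR-520f (range -0.57 to -0.15), beside 54.9% of all 164 members and 5.29% of all judged probes. With so few probes this count is no result about the role.

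Ubiquitin ligases and adaptors gave 7 probes of 6 genes, with a median of -1.10. A list by role of 35 other measured genes of this kind had 60 judged probes, with a median of -0.01. None of them was at -0.6 or lower in all 5 pairs. That list held none of the 6 member genes and was chosen with earlier results of these data known. At the 0.828% of all judged probes it would also hold less than 1 such probe, so that a count of 0 is no result. The members were as follows. APPBP2 had -1.33, RNFT2, listed as TMEM118, -1.16 and -1.11, WSB2, a SOCS box protein, -1.10 and KLHL8 -1.07. MARCHF5, listed as MARCH5 and a ligase of the outer mitochondrial membrane, had -1.01, and RNF149 had -0.996.

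Among 8 secreted, matrix and protease genes the means lay between -1.08 and -0.76. ADAM9, a membrane metalloprotease, had -1.08, ANGPTL4, an inhibitor of lipoprotein lipase, -0.97, SEMA3C, a guidance ligand, -0.96 and C1QTNF2 -0.97. CCDC80 had -0.80, MEGF6 -0.79, SRPX -0.78 and CCN3, listed as NOV, a matricellular protein, -0.76. With miR-520f this role spread widely, from ADAM9 at -2.36 to ANGPTL4 at 0.29.

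The remaining named genes were spread over many functions. SLC39A6, a zinc importer, had -1.26, KCNMA1, a potassium channel opened by calcium, -0.91 and MTCH2 of the outer mitochondrial membrane -1.01. NDUFAF3, listed as C3orf60 and an assembly factor of respiratory complex I, had -1.32, COXFA4L3, listed as C15orf48, -1.09 and BNIP3L, a receptor of mitophagy, -0.98. Of cytoskeletal genes, MYLK, the myosin light chain kinase, had -1.22, SYNC, listed as SYNC1, -1.18 and MAP1B, a microtubule protein of neurons, -0.84.

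TSEN34, a subunit of the tRNA splicing endonuclease, had -1.46, CPEB1, which regulates poly(A) tails, -0.92 and the long noncoding RNA MALAT1 -0.82. ESCO2, the acetyltransferase of cohesin, had -1.02, and SKA2 of the spindle and kinetochore complex -1.05. Of further membrane proteins, TMEM64 had -1.48, -1.43 and -1.13 on 3 member probes, REEP3 -1.13, BRI3BP -1.13, PRRT2 -1.10, TMEM14A -0.86, ZDHHC11, a palmitoyltransferase, -0.79 and OSTM1, part of a lysosomal chloride transporter, -0.70.

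A further 28 probes belonged to 27 genes of less described role or transcripts without a gene name, with means between -1.52 and -0.71. The named ones were FAM107A, FAM50B, ANKRD29, TMEM267 (listed as C5orf28), MTURN (listed as C7orf41), BBOF1 (listed as C14orf45) and MAGEH1. The others keep the array's names LOC399959, LOC147645, LOC285813, ENST00000299997, ENST00000379426, ENST00000344762, AK056630, AK074181, AK129849, AK123483, BC062792, CR616845, BQ184357, THC2495068, THC2487640, THC2563227, THC2665223, THC2525827, A_24_P233560 and A_23_P170719.

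Further lists by role are set beside the 0.828% of all judged probes. The lists were chosen with earlier results of these data known, so that a share above it is a description and not a test of enrichment. Of 19 measured genes that are reported targets of miRNAs with this seed, MBD2 and SMARCC2 had a probe at -0.6 or lower in all 5 pairs (2 of 28 probes, 7.14%), and the list's median was -0.34. Of 23 probes of cell cycle brakes none was, with a median of -0.17, nor was any of 39 probes of lysosomal proteins (median -0.08) or of 88 probes of ribosomal proteins (median 0.03). At the share over all judged probes each of these 3 lists would hold less than 1 such probe, so that a count of 0 is no result. The member probe of SMARCC2 was at -1.25, -0.92, -0.64, -0.90 and -0.68 in the 5 pairs, but its other judged probe was below 0 with dsEcad640, miR-302a and miR-373 (lowest -0.22) and above 0 with miR-520c (0.94) and miR-372, with a mean of 0.31.

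On miR-372 sample 4, which took no part in the choice, the median of the 164 probes was -1.18 against -0.05 over all judged probes. There 153 of the 164 (93.3%) were at -0.6 or lower, where 14.2% of all judged probes were, and 163 were below 0, where 56.1% of all were. Mock sample 1 was also the control of dsEcad640 and miR-302a. The members spread more widely on this array than in any of the 5 pairs (SD 0.68), and all judged probes did too (SD 0.55). CXCL8 was lowest (-4.23), followed by LCOR (-3.28) and LIN52 (-3.18). Another CXCL8 probe, which passed the background test for only 2 mock arrays and could not be judged, was at 2.46 on this array, the opposite direction.

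On the same array 51 members were below their lowest value in the 5 pairs and 18 above their highest. GNAQ was at -3.18 on sample 4 and at -0.88 on sample 10, both with miR-372 but in different sets. Highest on sample 4 were ULBP2 (0.43), a BDKRB1 probe (-0.34) and RUNX2 (-0.38). ULBP2 alone was above its mock, at a level of 6.29 against 5.86, and 2 other probes of ULBP2 were at -1.12 and -2.23 on the same array.

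With miR-520f, whose seed is shifted by 1 base, the members were also mostly below the mock array. The median was -0.67 against -0.03 over all judged probes, and 90 of the 164 (54.9%) were at -0.6 or lower, where 5.29% of all judged probes were. In all 153 were below 0, where 53.8% of all judged probes were, and 11 were at 0 or above. On 102 of the 164 probes the value with miR-520f was higher than in all 5 pairs, and on 14 it was lower than in all 5. Against miR-373, which shares mock sample 8, miR-520f was the higher on 115 of the 164. Since the rule required low values in the 5 pairs and not with miR-520f, these counts lean toward higher values with miR-520f and do not show that it lowered the members less.

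The lowest with miR-520f was TMEM14A, a small membrane protein, whose level was 11.79 on mock sample 8, 11.11 with miR-373 and 9.05 with miR-520f. Its difference was -2.74 with miR-520f and between -1.06 and -0.68 in the 5 pairs. ADAM9 followed, at 9.31 on mock sample 8, 8.58 with miR-373 and 6.95 with miR-520f, a difference of -2.36 where the 5 pairs gave -1.21, -0.99, -0.80, -0.73 and -1.65. SAMTOR came next with -2.22. These genes were thus low with every duplex, and TMEM14A and ADAM9 lowest with miR-520f.

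The highest with miR-520f were the transcript BQ184357 (0.35), ANGPTL4 (0.29) and the probe A_23_P170719 (0.20). ANGPTL4 was at 7.61 on mock sample 8, 6.38 with miR-373 and 7.89 with miR-520f, so that the duplexes of this set lay on opposite sides of the mock. TMEM64 showed the same pattern on all 3 of its member probes, with 0.15, 0.16 and 0.04 with miR-520f and -1.18, -1.34 and -1.32 with miR-373. These 3 probes report 1 gene and are not independent. Whether the difference between miR-520f and miR-373 exceeds the error could not be tested with 1 array of each.

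**Figure D3:**
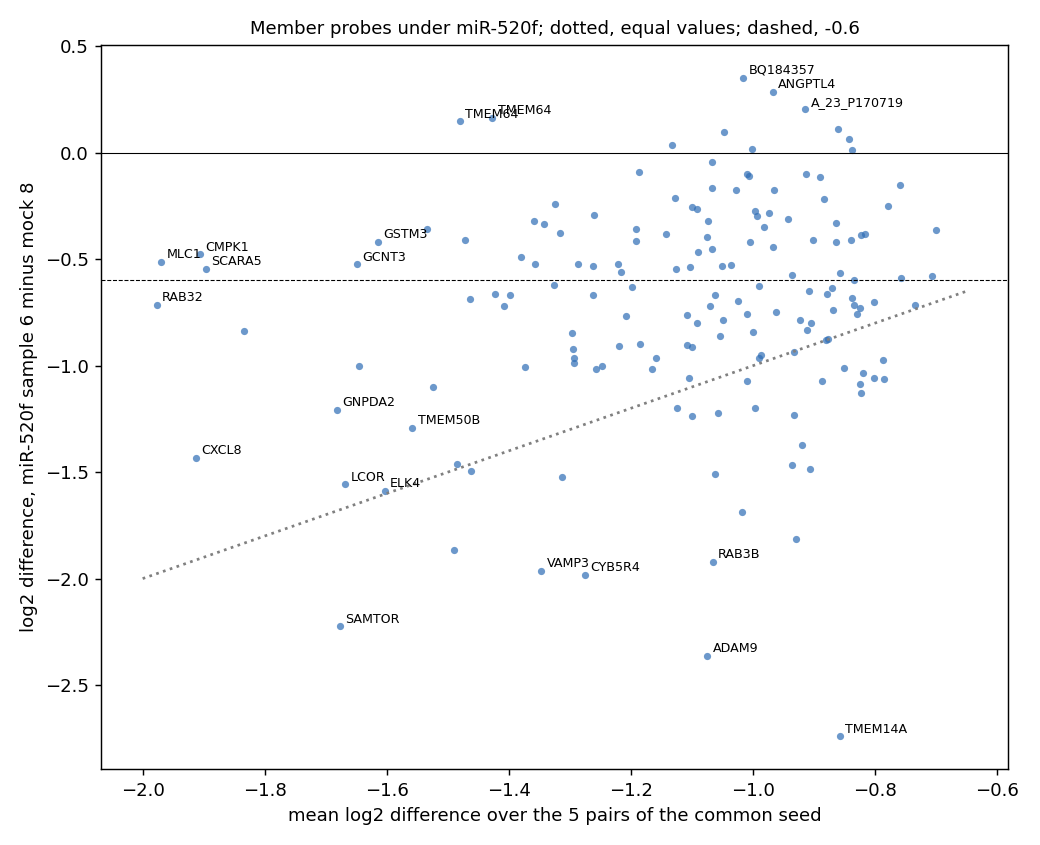
For each of the 164 member probes the difference with miR-520f is plotted against the mean of the 5 pairs, both as log2 differences from mock arrays. Points above the dotted line were less low with miR-520f than in that mean. TMEM14A and ADAM9 lie far below the line, and TMEM64 and ANGPTL4 above 0.

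Other probes of the same genes measured the members again on the same arrays. Of 149 genes, 14 had more than 1 member probe, and 51 had another probe that could be judged but was no member (65 probes). Of these 65, 42 (64.6%) were below 0 in all 5 pairs, against 20.4% of all judged probes. At -0.6 or lower in 3 or 4 pairs were 27 of the 65, but the share of all judged probes that were so was not counted. The median of the 65 over the means of the 5 pairs was -0.49. For SLC39A6 the other probe was at -1.21, for WSB2 at -1.09 and for RAB22A at -1.06, close to their member probes.

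At -0.6 or lower in no pair were 29 of the 65, and here too the share over all judged probes was not counted. Near 0, with means between -0.12 and 0.08, lay the other probes of RAB11A, SCARA5, ASF1A, ZNF226, MTCH2, BRMS1L and ZKSCAN1, all 3 of SKA2, both of ALG9 and one each of PCGF5 and BRI3BP. The highest means were those of GPR20 (0.35, with 1.01 with miR-372 and 1.56 with miR-520c) and SMARCC2 (0.31), and one of the other probes of OXR1 was at 0.13. For REEP3 one other probe was above 0 in all 5 pairs (mean 0.28) and another at -0.56, and for the transcript THC2487640 the other probe was above 0 in all 5 (0.19). Where these probes lie in the transcripts was not analysed here, and wherever another probe differs, the values given above hold for the member probe and not for the gene.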

How the data were processed

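Expression in PC-3 cells was measured 24 h after transfection on 11 Agilent 1-colour arrays, which limits the precision. The authors deposited scanner files of Feature Extraction 10.5.1.1, whose processed signal is a background-corrected intensity, not scaled between arrays, and a table of log2 values by a normalization that is not given in the sources used here. The table's quartiles are equal within a set and differ between sets, so differences were taken within sets only. Over the probes of the table, its values correlated with the log2 scanner signal at r = 0.9915 on miR-372 sample 4 and higher elsewhere.

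Member probes and gene lists were chosen with earlier results of these data known. The members had to be at -0.6 or lower in 5 pairs, well above background on 4 mock arrays, and not of 10 genes set aside. Symbols were updated through RefSeq accessions (123 probes), symbols (15) or synonyms (2), and 24 probes keep the array's name. Member genes are named by role, except for results that are not reported here, with every array for the 12 lowest. Saturated probes on any array numbered 0. Alternatives used the scanner signal less each array's 75th percentile, quantile normalization, and normexp with an offset of 50 (R 4.3.3, limma 3.58.1, Python 3.11.15, numpy 2.4.6, pandas 2.3.3), other mock arrays, thresholds and filters. The code of the selection was tested on simulated data with known changes, which is no test of the genes chosen. Probe and transcript sequences, and the strand, UTR or exon of a probe, were not analysed here.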

Additional observations from a re-analysis of the deposited data

Results flagged for a closer look

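Of 13 probes of the 12 lowest genes examined for a mock array far from the others, 2 were set apart, and chance sets apart about 1 in 20 groups. For MLC1 the scanner signals relative to the 75th percentile were -0.83, -0.83, -0.94 and -2.05 (log2) on mock samples 1, 8, 9 and 11, and the gap below was 0.911 of the range. For SCARA5 they were -1.44, -1.59, -1.43 and -2.42, and the gap was 0.836 of the range. In both it was mock sample 11, the control of miR-520c, that was low.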

How the results depend on the processing

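The number of member probes was 164, and it moved by over 1.5 times under 7 of the alternatives. It was 255 with the scanner signal relative to the 75th percentile (156 shared with the 164) and 97 with normexp background correction (91 shared). It was 264, 67 and 32 with thresholds of -0.5, -0.8 and -1, 90 when miR-520f also had to be at -0.6 or lower, and 259 without miR-373 in the rule. With the mock arrays of set 3 exchanged it was 128, of which 123 were members before. Leaving out mock 9 gave 145 and leaving out mock 11 gave 161. With miR-372 sample 4 in place of sample 10 it was 174 (153 shared), and without miR-372 in the rule it was 188. The scanner signal against the mean of the 4 mock arrays, which changes both the values and the control, gave 201 (110 shared), or 195 to 236 with 1 of these left out (106 to 114 shared).

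The median over members of the mean of the 5 pairs, -1.06, was -0.88 with normexp, -1.06 to -1.14 with an array left out and -1.09 to -1.16 with the scanner signal against the mean of the mock arrays with 1 left out. The value of -1.14 was with miR-372 sample 4 in place of sample 10. The median on miR-372 sample 4, -1.18, was -0.91 with the scanner signal, -0.76 with normexp and -1.003 with the scanner signal against the mean of the 4 mock arrays, and -0.97 to -1.04 with 1 of these left out. The median with miR-520f, -0.67, was -0.50 with normexp and -0.67 to -0.74 with a mock array left out. No median changed sign, and medians of different alternatives were taken over the 164 members. The causes were not tested. No paired analysis was possible because the results come from no test, although the differences themselves were taken within a set. Probe sequences were not searched for seed sites. Each duplex but miR-372 has 1 array, and genes that fell to background have no value in the table.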
